A study of Mus musculus with 4 samples.

Results

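Gene expression was compared between 2 mouse lines of induced pluripotent stem (iPS) cells, iPS-OSH and iPS-J. The comparison used the arrays titled iPS-OSH and iPS-J, 2 of the 4 arrays of the series, each read on a 1-colour Agilent array. The other arrays held mouse embryonic fibroblasts (MEF) and embryonic stem cells (ESC) and are given beside the iPS values. iPS-OSH, iPS-J and MEF were of C57BL/6 background, and ESC of 129SV. Both iPS lines and ESC grew in serum medium with leukaemia inhibitory factor (LIF), and MEF grew in serum medium with no LIF listed. The labels do not say what the letters OSH and J stand for, which factors made the lines, the passage, or whether a line was 1 clone or was grown on feeder cells. Each group had 1 array, so there is no check by replicates, and every difference is described by its size, with no test.

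Pluripotent cells are held in their state by a circuit of transcription factors around Pou5f1 (Oct4), Sox2 and Nanog, and iPS cells are somatic cells returned to it. In the early mouse embryo the inner cell mass also gives rise to primitive endoderm, which is directed by Gata6, Gata4, Sox17 and Sox7, lays down laminin and forms visceral and parietal endoderm. Fibroblasts, the usual cells of origin, make fibrillar collagens and contractile proteins, and reprogramming normally silences these genes while epithelial genes come on. Innate immune cells and fibroblasts answer infection or tissue damage with interferon-stimulated genes and chemokines, which ESC induce poorly.

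Signals are given as scaled signals, in which the 75th percentile of each array is 1000. Both iPS arrays were scanned in session 2, MEF in session 1 and ESC in session 3. For MEF and ESC an effect of the scan session would therefore look the same as one of group. Whether the arrays shared a slide was not established. Agilent's software called 78.2% of the iPS-OSH spots and 67.0% of the iPS-J spots well above background. Probes printed 10 times varied by a pooled SD of 0.16 log2 on the iPS-OSH array and 0.25 on the iPS-J array, so that spot noise alone gives a difference an SD of 0.30. This covers spots within an array only, not cultures or labelling. A gene is called detected where its probe had that call. It was compared where it was detected in iPS-OSH, in iPS-J or in both, and where in 1 of them only, the difference is a lower bound, written "at least".

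Of 29242 genes compared, 83.7% lay within 2-fold and 16.3% differed by more. iPS-OSH exceeded iPS-J by 2-fold or more for 2605 genes, or 8.91%, and fell below it by as much for 2151, or 7.36%. At 4-fold the counts were 670 higher (2.29%) and 467 lower (1.6%), or 3.89% either way. Genes detected on the iPS-OSH array only numbered 3748, against 364 on the iPS-J array only, and bounds made up 769 of the higher calls and 349 of the lower ones. Among genes measured on both arrays the calls were 1836 higher and 1802 lower. ERCC control probes were well above background at 38.2% of spots on the iPS-OSH array and at 21.1% on the iPS-J array, and the part of this gap in detection in the counts was not tested. Gene lists held 941 memberships, of which 928 had a value on the arrays, and the counts below are of those that passed the detection filter. The lists were written from general knowledge with earlier results of these data known. Their counts are therefore not independent of these arrays. The median difference was 0.0 log2 over all genes compared, and the signals correlated across these genes with r = 0.961 (Spearman's rho = 0.956), genes not being independent replicates.

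**Figure D1:**
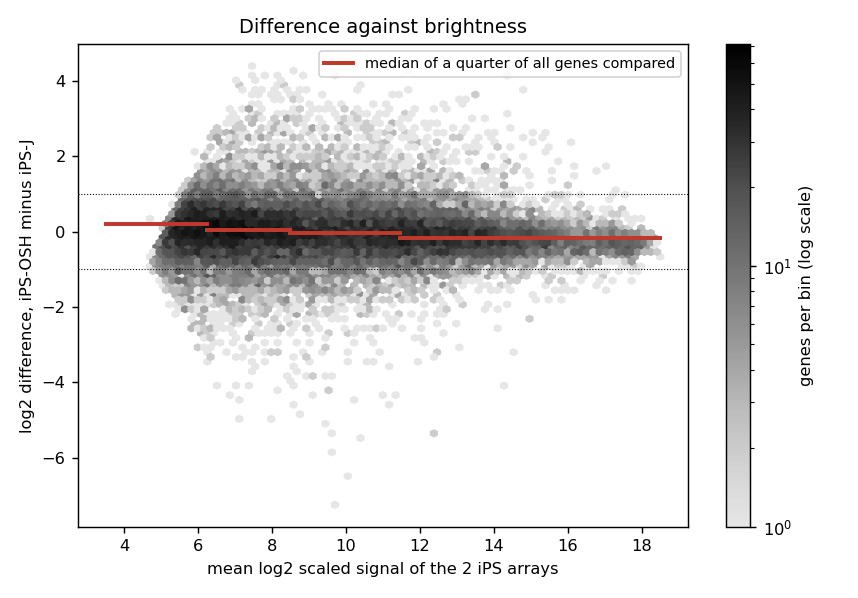
The log2 difference between iPS-OSH and iPS-J (y) is plotted against the mean log2 scaled signal of both iPS arrays (x) for genes well above background on both, with grey showing the number of genes per bin on a log scale and dotted lines at 2-fold. Red lines are medians of 4 equal groups of all genes compared by brightness, bounds included, and run from 0.19 in the dimmest to -0.17 in the brightest.

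The identity of both lines was checked against marker genes. The summed scaled signal of 6 pluripotency markers was 219131 in iPS-OSH and 334114 in iPS-J, against 292539 in ESC and 278 in MEF, so both lines carried the label's cell type. The sum of 7 fibroblast markers was 287829 in iPS-OSH and 53348 in iPS-J, against 42903 in ESC and 890854 in MEF. The sum of 9 visceral or primitive endoderm markers was 7437 in iPS-OSH and 140439 in iPS-J, with Afp not detected on either iPS array, against 19656 in ESC and 2092 in MEF. The lines therefore stood apart in opposite directions on the fibroblast and the endoderm sums. In bulk RNA, fewer cells of a type and less RNA per cell cannot be told apart, and this holds for every gene group that follows.

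The core pluripotency factors were at like levels in both lines. Of 22 pluripotency factors, 0 were 2-fold higher and 0 were 2-fold lower in iPS-OSH, and their median difference was -0.12. Pou5f1 had a scaled signal of 6677 in iPS-OSH and 9561 in iPS-J, against 5661 in ESC and 47.3 in MEF. Sox2, its DNA-binding partner, had 9252 in iPS-OSH and 11242 in iPS-J, against 13570 in ESC and was not detected in MEF. Nanog had 51511 in iPS-OSH and 52154 in iPS-J, a log2 difference of -0.02, and its other probe differed by 0.02. Both lines thus lay close together and near ESC for these 3 genes, and far above MEF. The nuclear receptor Esrrb, with 42403 in iPS-OSH and 50402 in iPS-J, and the chromatin-associated factor Utf1, with 68902 and 75255 in the same order, also differed by under 2-fold. Klf4 was 10966 in iPS-OSH and 17502 in iPS-J, and was as high as 8145 in MEF. Zfp42 (Rex1) stood apart from ESC in both lines. Its signal was 4637 in iPS-OSH and 6800.4 in iPS-J, against 131710 in ESC.

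Of 26 further pluripotency markers, 0 were higher and 4 (15.4%) were lower in iPS-OSH, against 8.91% and 7.36% of all genes. Their median was -0.27. The 4 lower markers were Slc2a3, a glucose transporter, Tdgf1 (Cripto), a co-receptor of Nodal, Fut9, which makes the SSEA-1 carbohydrate, and Lin28b, which blocks let-7 processing. Tdgf1 had 7159 in iPS-OSH and 21955 in iPS-J, against 17725 in ESC and 30 in MEF, 3.07-fold lower in iPS-OSH. Fut9 was 5.45-fold lower, at 89.8 in iPS-OSH and 489.7 in iPS-J, although its other probe differed by only -0.58 log2. Lin28b was 2.71-fold lower, and its other probe differed by -0.80. Dppa5a, an RNA-binding protein of pluripotent cells, was within 2-fold, at 121420 in iPS-OSH and 193250 in iPS-J. Among 11 genes of the primed epiblast, 2 (18.2%) were higher, Foxd3 (2.3-fold) and Sall2 (2.17-fold), and 0 were lower. Otx2, Pou3f1 and Dnmt3b were within 2-fold.

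**Figure D2:**
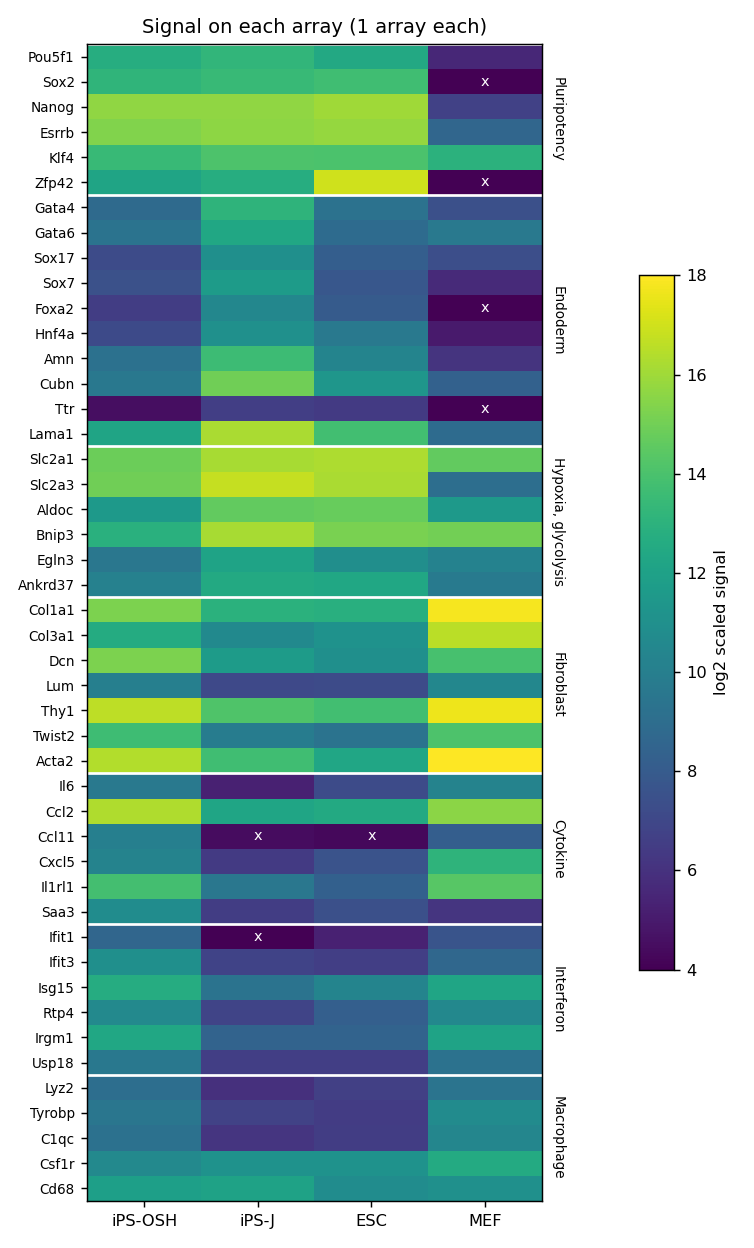
Log2 scaled signal (colour) of named genes on the 4 arrays, iPS-OSH, iPS-J, ESC and MEF from left to right, grouped by function, with x where a probe was not well above background. Pluripotency rows are alike on both iPS arrays, endoderm and hypoxia rows are dimmer in iPS-OSH, and fibroblast, cytokine and interferon rows are brighter in iPS-OSH.

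Endoderm genes were lower in iPS-OSH. Of 17 endoderm transcription factors, 13 were at least 2-fold lower and 1 (Gsc) was higher, with a median of -2.16, against 7.36% of all genes lower and 8.91% higher. Gata4 (probe at chr14:63817858-63817917, mm9) had 459 in iPS-OSH and 8971 in iPS-J, against 629.5 in ESC and 171 in MEF. Only iPS-J was high for Gata4, and the iPS-OSH signal was 19.5-fold lower than that of iPS-J and below that of ESC. Gata6, which acts first in primitive endoderm, had 645 in iPS-OSH and 5099 in iPS-J, against 475 in ESC and 799 in MEF. Sox17 had 147 in iPS-OSH and 1989 in iPS-J, against 292 in ESC and 166 in MEF, and its other probe differed by -4.38 log2. Its relative Sox7 was 18.5-fold lower in iPS-OSH. The forkhead factor Foxa2 had 93.7 in iPS-OSH and 1448 in iPS-J, against 257 in ESC, and was undetected in MEF. Hnf4a, a nuclear receptor of visceral endoderm and liver, was 14.6-fold lower, at 143 in iPS-OSH and 2082 in iPS-J. Foxq1 was 11.2-fold lower. For Gata4, Sox17, Sox7, Foxa2, Hnf4a and Foxq1, iPS-OSH was below ESC and iPS-J above it. The probes of Lhx1 disagreed, the brightest differing by 0.46 and the other by -3.78.

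The proteins through which visceral endoderm takes up nutrients followed the same direction. Of 27 visceral endoderm receptors and carriers compared, 16 were lower and 0 were higher, with a median of -1.48. Cubn (cubilin) and Amn (amnionless) together form the endocytic receptor cubam, and Lrp2 (megalin) works beside it. Cubn had 787 in iPS-OSH and 32137 in iPS-J, against 2654 in ESC and 325 in MEF, a difference of -5.35 log2 on this probe and -4.63 on the other. Amn had 593 in iPS-OSH and 12354 in iPS-J, against 1262 in ESC and 68.1 in MEF. Lrp2 was 9.89-fold lower and the endocytic adaptor Dab2 5.92-fold lower. All 4 receptor and adaptor genes were thus lower in iPS-OSH, also below ESC except for Dab2. The calcium-binding protein S100g was 18.4-fold lower and the Wnt antagonist Dkk1, which is made by anterior visceral endoderm, 14.1-fold lower. Ttr, a carrier of thyroid hormone, was dim, at 23 in iPS-OSH and 96.9 in iPS-J. Genes of mature yolk sac and liver, Afp, Alb and Fabp1, were not detected on either iPS array.

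Among 19 basement membrane and parietal endoderm genes, 8 were lower and 3 were higher. Lama1, the laminin chain of the early embryo, had 4596 in iPS-OSH and 76509 in iPS-J, against 14020 in ESC and 471 in MEF. Srgn, a granule proteoglycan expressed in parietal endoderm, was 40.5-fold lower, at 793 in iPS-OSH and 32137 in iPS-J. Pth1r, the parathyroid hormone receptor found on parietal endoderm, was 7.31-fold lower and Krt19 5.7-fold lower. The 3 higher members were Thbd (9.33-fold), the thrombin receptor, Plat (4.38-fold), a plasminogen activator, and Fst (7.11-fold), the activin antagonist follistatin. All 3 were higher in MEF than in ESC. Of the lower members named, Srgn and Lama1 were lower in MEF than in ESC, whereas Pth1r (1.79 log2) and Krt19 (0.46 log2) were higher. Over the whole list, 13 of 19 genes were at least 2-fold higher in MEF than in ESC, and 4 were at least 2-fold lower.

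Epithelial genes were lower as well, with 15 of 27 at least 2-fold lower in iPS-OSH, 0 higher and a median of -1.20. Ocln, a tight junction protein, had 31.4 in iPS-OSH and 161 in iPS-J, against 127 in ESC and 40.8 in MEF. The claudins Cldn6 and Cldn3 were 4.71-fold and 4.43-fold lower, the junction scaffold Tjp3 4.68-fold and the epithelial sorting adaptor Ap1m2 4.99-fold. Cdh1 (E-cadherin), at 6739 in iPS-OSH and 12533 in iPS-J, and Epcam, at 1948 and 3814 in the same order, stayed within 2-fold, and both lines were far above MEF, where neither gene was well above background. Keratins Krt8 and Krt18, which mark both extraembryonic endoderm and simple epithelium, were 2.8-fold and 2.77-fold lower. Their signals in iPS-OSH, 4357 and 8971, were near those of ESC, 4794 and 9963.

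**Figure D3:**
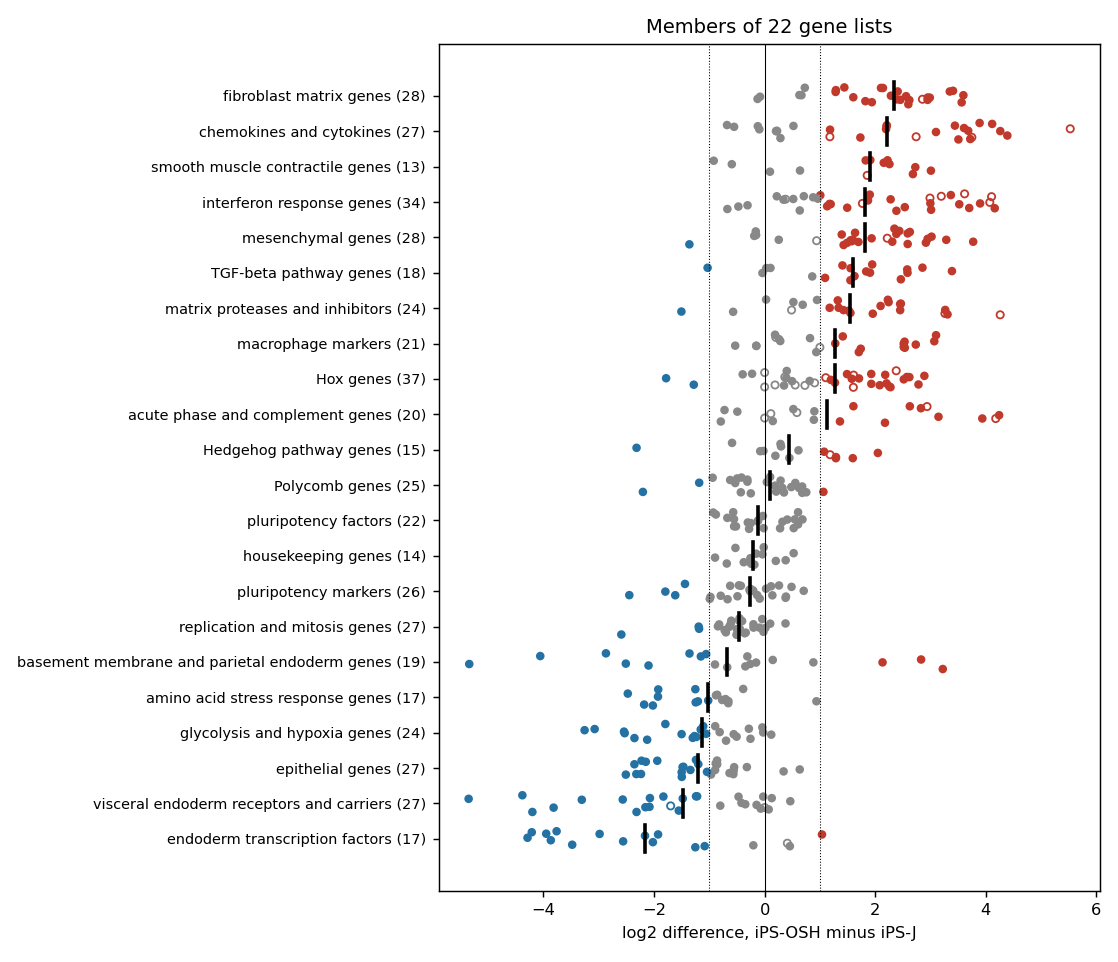
Each point is a member of 1 of 22 gene lists, placed by its log2 difference between iPS-OSH and iPS-J (x); open points are bounds, red and blue points are at least 2-fold higher and lower in iPS-OSH, black bars are list medians, and numbers in brackets are the genes compared. List medians run from 2.34 for fibroblast matrix genes to -2.16 for endoderm transcription factors, with the 22 pluripotency factors all between the dotted 2-fold lines.

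The 10 genes with a common symbol measured farthest below iPS-J were Peli3, Aqp8, Plek2, Cubn, Srgn, Hkdc1, Tcf23, Olfr527, Habp2 and Nxf7. Peli3, a ubiquitin ligase of innate immune signalling, had 109 in iPS-OSH and 10155 in iPS-J, against 125 in ESC and 26.9 in MEF. It was 93.3-fold lower, and the high signal was that of iPS-J alone. Aqp8, a water channel, had 205 in iPS-OSH and 9412 in iPS-J, against 1117 in ESC and 242 in MEF, and its other probe differed by -5.76 log2. Plek2 (pleckstrin 2), an actin-linked protein, was 41.4-fold lower, Hkdc1, a hexokinase family member, 34.5-fold and Habp2, a secreted hyaluronan-binding protease, 27.4-fold. Tcf23, a helix-loop-helix factor, was 32.6-fold lower and Nxf7, an RNA export factor on the X chromosome, 24.8-fold, with -4.07 log2 on its other probe. Olfr527, an olfactory receptor, had 23.1 in iPS-OSH and 745 in iPS-J. The largest bounds were Vmn1r205, at least 42.3-fold lower, and Pdzk1ip1, Clic5, Kdm4dl and Olfm3, at least 22.6-fold to 26.8-fold lower, all undetected in iPS-OSH. The other probe of Pdzk1ip1 differed by -0.93 log2.

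Genes of glycolysis and the hypoxia response were lower in iPS-OSH. Of 24, 14 were at least 2-fold lower and 0 were higher, with a median of -1.13. Hypoxia-inducible factors bind the core letters ACGTG, and Bnip3, a mitophagy receptor, is a standard target. Its upstream sequence from RefSeq (250 bases before the start, GRCm38.p6, chr7:138909507-138909756, minus strand) is printed because Bnip3 had the largest difference of the list. Capitals mark matches to ACGTG on either strand, which here overlap as 1 palindrome.
Bnip3: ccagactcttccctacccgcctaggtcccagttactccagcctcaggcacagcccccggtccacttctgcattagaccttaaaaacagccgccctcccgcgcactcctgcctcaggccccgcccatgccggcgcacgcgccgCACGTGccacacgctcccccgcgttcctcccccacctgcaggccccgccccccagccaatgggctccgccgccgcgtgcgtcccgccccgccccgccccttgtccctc
Bnip3 had 7639 in iPS-OSH and 72959 in iPS-J, against 37375 in ESC and 33033 in MEF, and its other probes differed by -2.97 and -3.49 log2. iPS-OSH was the lowest of the 4 arrays for this gene and iPS-J the highest. Aldoc, a brain form of aldolase, had 2985 in iPS-OSH and 25129 in iPS-J, against 27007 in ESC and 2975 in MEF. Egln3, an oxygen-sensing prolyl hydroxylase, was 5.83-fold lower, Ankrd37 5.11-fold, Ndrg1 4.36-fold and the lactate exporter Slc16a3 5.78-fold. The glucose transporter Slc2a3 had 31789 in iPS-OSH and 110350 in iPS-J, against 75764 in ESC and 539 in MEF. Central enzymes of glycolysis differed less. Gapdh was 286280 in iPS-OSH and 291500 in iPS-J, and Pgam1 and Pkm also stayed within 2-fold, whereas Pgk1 was 2.35-fold lower and Tpi1 2.41-fold. In promoters from 250 bases before to 50 after the start, ACGTG was found in 21.8% of 27025 genes and in 16 of the 22 list members with a promoter sequence, namely 8 of 12 called members and 8 of 10 members that were not called. The matches are a description of letters, not of binding.

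The amino acid stress list, targets of the transcription factor Atf4, had 9 of 17 genes lower, 0 higher and a median of -1.02. Chac1, which degrades glutathione, had 2522 in iPS-OSH and 14016 in iPS-J, against 4036 in ESC and 17234 in MEF. Cth, an enzyme of cysteine synthesis, was 4.53-fold lower, Psph, the last enzyme of serine synthesis, 3.81-fold, and the pseudokinase Trib3 3.79-fold. Vldlr was 4.06-fold lower on its brightest probe and -0.11 log2 on the other. All 5 were higher in MEF than in ESC, the opposite direction to that between iPS-OSH and iPS-J. Among 26 sterol genes, 2 were lower, Msmo1 (2.9-fold) and Stard4 (3.02-fold, with -0.61 log2 on its other probe), and 1 was higher, the cholesterol hydroxylase Ch25h, at 1798 in iPS-OSH and 136 in iPS-J, against 118 in ESC and 1645 in MEF. The sterol shares, 7.69% lower and 3.85% higher, were near or below those of all genes, 7.36% and 8.91%.

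Fibroblast genes were higher in iPS-OSH. The fibroblast matrix list had 23 of 28 genes past 2-fold upward and 0 downward, with a median of 2.34, and 17 passed 4-fold, where 2.29% of all genes did. Col1a1 (probe at chr11:94813115-94813174, mm9), the main fibrillar collagen chain, had 38285 in iPS-OSH and 7863 in iPS-J, against 7376 in ESC and 225550 in MEF. iPS-J lay at the level of ESC for Col1a1, and iPS-OSH lay between it and MEF. Dcn (decorin), a small proteoglycan, had 39358 in iPS-OSH and 3330.5 in iPS-J, against 2047 in ESC and 15558 in MEF, and was the only list member with a higher signal in iPS-OSH than in MEF. Fbln5, an elastic fibre protein, was 12.1-fold higher, Lox, the collagen cross-linking oxidase, 10.6-fold, and Tnc (tenascin C) 10.2-fold. Lum (lumican) was 7.93-fold and Col12a1 7.72-fold higher. Fn1 (fibronectin) was within 2-fold, at 93628 in iPS-OSH and 60562 in iPS-J, as were Pcolce, Mfap4, Eln and Loxl2. As a share of the MEF signal, the median member stood at 26.0% in iPS-OSH and 6.70% in iPS-J.

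Of 28 mesenchymal genes compared, 22 were higher and 1 was lower, with a median of 1.82. Thy1, a surface protein lost early in reprogramming of fibroblasts, had 98129 in iPS-OSH and 18141 in iPS-J, against 13661 in ESC and 208540 in MEF. Twist2, a factor of dermal fibroblasts, had 12867 in iPS-OSH and 943 in iPS-J, against 647 in ESC and 17601 in MEF. iPS-OSH thus reached 73.1% of the MEF signal of Twist2 and 47.1% of that of Thy1. The hyaluronan receptor Cd44 was 9.74-fold higher, Ly6a (Sca-1) 7.55-fold, the growth factor receptor Pdgfrb 6.17-fold and the limb and skin factor Tbx15 7.72-fold. Cdh11 was 8.1-fold higher on its brightest probe, and its other probe differed by 0.03 log2. Pdgfra, which marks both fibroblasts and primitive endoderm, was at 2012 in iPS-OSH and 2239.7 in iPS-J, a difference of -0.15. The 1 lower member was Nt5e, a surface nucleotidase, at 428 in iPS-OSH and 1098 in iPS-J.

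Contractile genes of smooth muscle and activated fibroblasts had 9 of 13 members higher, 0 lower and a median of 1.91. Acta2 (smooth muscle actin) had 85373 in iPS-OSH and 13312 in iPS-J, against 5014 in ESC and 301330 in MEF. Actg2 was 8.04-fold higher, the myosin light chain Myl9 6.61-fold, Cnn1 (calponin) 4.67-fold and Tpm2 4.45-fold. Tpm1 was 4.78-fold higher, with -0.09 to 0.49 log2 on its 4 other detected probes. Des, Lmod1, Mylk and Smtn stayed within 2-fold. Among 24 matrix proteases and inhibitors, 17 were higher and 1 (Adamts9, with -0.89 log2 on its other probe) was lower. Mmp13, a collagenase, had 438 in iPS-OSH and was not detected in iPS-J or ESC, against 85 in MEF, and was at least 19.15-fold higher. Mmp3 (stromelysin) had 2439 in iPS-OSH and 246 in iPS-J, against 196 in ESC and 169.6 in MEF, so that MEF was not above iPS-J. Mmp10 was 9.62-fold higher, Plau (urokinase) at least 9.58-fold and the protease inhibitor Timp3 5.47-fold. The summed fibroblast markers, given above, were higher in iPS-OSH beside all these groups, and their part in the other differences was not tested.

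**Figure D4:**
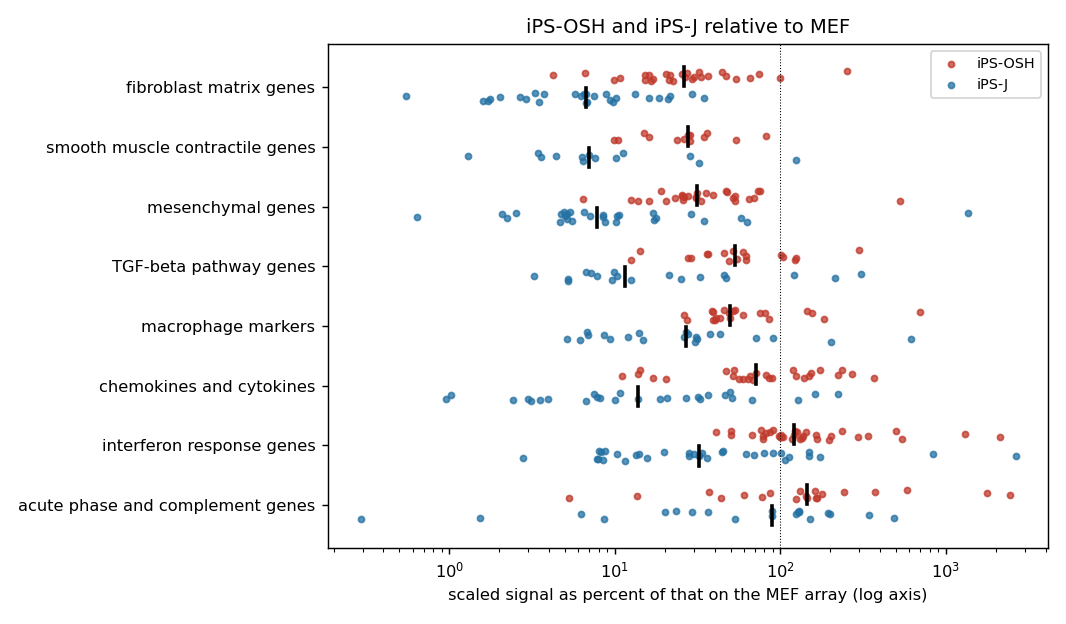
Scaled signal on each iPS array as a percentage of that on the MEF array (x, log axis) for members of 8 lists, iPS-OSH in red above iPS-J in blue, with black bars at medians and a dotted line at the MEF level. Fibroblast matrix genes in iPS-OSH have a median of 26.0%, whereas interferon response genes (122%) and acute phase genes (144%) have medians above MEF.

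Chemokines and cytokines were higher in iPS-OSH. Of 27 compared, 19 were at least 2-fold higher, 0 were lower and the median was 2.21, with 16 past 4-fold. NF-kappaB switches on many of these genes, and a match to one of its sites (GGGA and TTTCC with 1 base between) in the 250 bases before the start is printed for Il6 (chr5:30012864-30013113, plus strand) and Cxcl1 (chr5:90890995-90891244, plus strand), members that hold one and differed most. Sequences are from RefSeq (GRCm38.p6), with the match in capitals.
Il6: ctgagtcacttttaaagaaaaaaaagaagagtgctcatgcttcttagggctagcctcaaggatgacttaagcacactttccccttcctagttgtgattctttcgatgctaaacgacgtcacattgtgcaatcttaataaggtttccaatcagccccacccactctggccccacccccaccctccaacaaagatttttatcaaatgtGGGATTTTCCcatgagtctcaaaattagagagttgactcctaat
Cxcl1: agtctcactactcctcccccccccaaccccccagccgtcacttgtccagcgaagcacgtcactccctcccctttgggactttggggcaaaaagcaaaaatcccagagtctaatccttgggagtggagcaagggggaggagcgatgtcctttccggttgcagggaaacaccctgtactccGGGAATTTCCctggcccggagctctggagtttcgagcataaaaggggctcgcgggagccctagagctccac
Il6, the cytokine interleukin 6, had 810.3 in iPS-OSH and 38.7 in iPS-J, against 146 in ESC and 1236 in MEF, 20.9-fold higher in iPS-OSH. Cxcl1, a neutrophil chemokine, had 307 in iPS-OSH and was not detected in iPS-J, against 46.3 in ESC and 655 in MEF, and was at least 13.4-fold higher. On both promoter strands the motif was found in 0.466% of 27025 genes and in 4 of 25 list members with a promoter (Csf1, Cxcl1, Cxcl2 and Il6), of which 3 were called and Cxcl2 was not detected on any array. It was found in 0 of 15 acute phase members, which says only that these letters are not in these windows.

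Ccl2, which draws monocytes, had 83387 in iPS-OSH and 4816 in iPS-J, against 5700.1 in ESC and 48057 in MEF. Ccl11 (eotaxin) had 1054 in iPS-OSH and 287 in MEF and was not detected in iPS-J or ESC, at least 46.1-fold higher in iPS-OSH. For both chemokines iPS-OSH was the highest of the 4 arrays. Il1rl1, the receptor of interleukin 33, had 14486 in iPS-OSH and 756 in iPS-J, against 309.6 in ESC and 21360 in MEF, with 4.61 and 4.35 log2 on its other probes. Cxcl5 was 14.8-fold higher, at 14.1% of MEF. Il1a, Il1b, Ccl20 and Csf2 were not detected on any of the 4 arrays, and Tnf was dim, at 51.8 in iPS-OSH. Of the 27 members compared, 10 had a higher signal in iPS-OSH than in MEF, and the list's median was 71.4% of MEF in iPS-OSH and 13.7% in iPS-J.

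Acute phase and complement genes had 10 of 20 members higher, 0 lower and a median of 1.13, of which 5 values were bounds. Saa3, an acute phase apolipoprotein, had 1767 in iPS-OSH and 93.5 in iPS-J, against 171 in ESC and 72.4 in MEF. It was high in iPS-OSH alone. Cp (ceruloplasmin), a copper-carrying ferroxidase, had 1140.1 in iPS-OSH and 74.5 in iPS-J, against 190.1 in ESC and 867 in MEF. Ptx3, a soluble pattern receptor, was at least 18.1-fold higher but reached only 5.28% of MEF. Cfb (complement factor B) had 175 in iPS-OSH and was not detected on the other 3 arrays. Serpina3g was 8.84-fold higher. The complement protease C1ra was 7.09-fold higher, and its direction turned round when spots called uneven were kept (a difference of -1.15). The median member stood at 144% of MEF in iPS-OSH and 88.8% in iPS-J.

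Interferon response genes were higher in iPS-OSH. On this list 23 of 34 genes passed 2-fold upward and 0 downward, and the median was 1.82, or 1.19 over the 27 measured on both arrays. Interferon-stimulated genes carry a response element, searched for as GAAA and GAAA with 2 bases between. It was found on either strand in 3.99% of 27025 genes and in 15 of 24 list members with a promoter sequence, namely 10 of 17 called members and 5 of 7 that were not called. The 250 bases before the start (RefSeq, GRCm38.p6) are printed for Ifit1 (chr19:34640639-34640888, plus strand), Ifit3 (chr19:34583279-34583528, plus strand) and Isg15 (chr4:156200819-156201068, minus strand), which hold 2, 2 and 3 matches, those of Isg15 overlapping. Capitals mark the matches.
Ifit1: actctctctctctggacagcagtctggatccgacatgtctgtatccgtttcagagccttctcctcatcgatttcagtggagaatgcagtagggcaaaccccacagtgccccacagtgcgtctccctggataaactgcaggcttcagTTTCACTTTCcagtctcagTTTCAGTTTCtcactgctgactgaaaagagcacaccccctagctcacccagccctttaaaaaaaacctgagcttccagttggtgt
Ifit3: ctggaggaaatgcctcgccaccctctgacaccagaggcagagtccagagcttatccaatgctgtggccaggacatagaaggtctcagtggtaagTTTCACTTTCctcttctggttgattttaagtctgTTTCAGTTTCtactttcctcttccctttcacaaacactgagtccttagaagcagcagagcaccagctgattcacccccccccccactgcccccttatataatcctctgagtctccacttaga
Isg15: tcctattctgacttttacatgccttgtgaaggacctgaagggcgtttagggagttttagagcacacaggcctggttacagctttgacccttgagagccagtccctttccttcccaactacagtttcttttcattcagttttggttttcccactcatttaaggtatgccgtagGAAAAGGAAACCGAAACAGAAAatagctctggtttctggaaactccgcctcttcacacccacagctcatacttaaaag
Ifit1 and Ifit3 belong to a cluster of antiviral genes, and Isg15 is a ubiquitin-like modifier.

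Ifit3 had 2019 in iPS-OSH and 113 in iPS-J, against 97 in ESC and 403 in MEF. Ifit1 had 393 in iPS-OSH and was not detected in iPS-J, against 39.6 in ESC and 199 in MEF, at least 17.2-fold higher in iPS-OSH. Isg15 had 6621 in iPS-OSH and 642 in iPS-J, against 1277 in ESC and 4807 in MEF. For all 3 genes iPS-OSH was the highest of the 4 arrays. Irgm1, an interferon-inducible GTPase, was 14.9-fold higher, with 4.16 log2 on its other probe, and Rtp4 13-fold higher. Ifi44 and Ifit2 were at least 16.8-fold and 12.3-fold higher. Irf7, the factor that amplifies the response, had 300.0 in iPS-OSH and was not detected in iPS-J, against 67.8 in ESC and 102 in MEF. The signal transducers Stat2 and Irf9 differed less, by -0.47 and 1.01 log2. Xaf1 was 11.5-fold higher on its brightest probe and -0.09 log2 on the other. Iigp1, Ifitm1 and Stat2 were the members with negative differences, all within 2-fold. Of the members compared, 22 had a higher signal in iPS-OSH than in MEF, and the median stood at 122% of MEF in iPS-OSH and 32.2% in iPS-J.

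Antigen presentation genes were split, with 6 of 19 (31.6%) higher and 3 (15.8%) lower, against 8.91% and 7.36% of all genes. The higher ones belong to class I presentation. B2m, the invariant light chain, had 60214 in iPS-OSH and 7015 in iPS-J, against 5561 in ESC and 66343 in MEF. H2-D1 was 5.69-fold higher, the immunoproteasome subunit Psmb8 4.09-fold and H2-T23 2.77-fold. H2-Ab1, a class II chain, went the other way, at 113 in iPS-OSH and 1386 in iPS-J, against 1123 in ESC and 323 in MEF, and its other probe differed by -3.75 log2. Psmb9, an immunoproteasome subunit like Psmb8, was 2.64-fold lower, so class I members did not all go the same way. Probes of the H2 family can share sequence between family members and between strains, so their values are uncertain as to the gene.

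Macrophage genes were also partly higher. Of 21, 11 were higher, 0 were lower and the median was 1.28. Lyz2 (lysozyme) had 532 in iPS-OSH and 62.1 in iPS-J, against 99.2 in ESC and 661 in MEF. Tyrobp, an adaptor of myeloid receptors, had 722 in iPS-OSH and 109 in iPS-J, against 91 in ESC and 1758 in MEF. The complement chains C1qc and C1qa were 8.39-fold and 5.78-fold higher, the protease Ctss 5.72-fold and the tetraspanin Cd53 5.8-fold. All 6 were higher in MEF than in ESC. Of the genes that define the lineage, Ptprc (CD45), Cd68, Csf1r and Laptm5 were within 2-fold (the other probe of Csf1r differed by 1.05 log2), and Spi1 was at 26.3 in iPS-OSH and undetected in iPS-J. The summed signal of 6 macrophage markers was 7804 in iPS-OSH and 8079 in iPS-J, against 4931 in ESC and 10210 in MEF.

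The 10 genes with a common symbol measured farthest above iPS-J were Il6, Il1rl1, Saa3, Bcl2l15, Ifit3, Ccl2, Flrt2, Pcdh7, Lce1i and Lilrb4a. Bcl2l15, a Bcl2 family member, had 925 in iPS-OSH and 50.5 in iPS-J, against 139 in ESC and 55.6 in MEF, so that it was high in iPS-OSH alone. The adhesion proteins Flrt2 and Pcdh7 were 17.1-fold and 16.9-fold higher, at 74.7% and 54.5% of MEF. Lce1i, a cornified envelope protein, was 16.6-fold higher, and Lilrb4a, an inhibitory receptor of myeloid cells, 15.7-fold. The 5 largest bounds were Ccl11, Olr1, Mmp13, Ptx3 and Ifit1. Olr1, a receptor of oxidized lipoprotein, had 480.1 in iPS-OSH and 305 in MEF and was not detected in iPS-J or ESC. Over all called genes, 1833 other detected probes of the same genes were available, of which 80.3% went the same way and 47.0% were also at least 2-fold different.

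Growth factor pathways were mixed, with the TGF-beta pathway highest. Of its 18 genes, 13 were higher in iPS-OSH and 1 (Skil, with -0.04 log2 on its other probe) was lower, with a median of 1.59. Among the ligands, Inhba, the activin A subunit, had 29840 in iPS-OSH and 2852 in iPS-J, against 1716 in ESC and 54477 in MEF, and Tgfb3 was 3.85-fold higher. The receptor Tgfbr2 was 7.23-fold higher, at 7353 in iPS-OSH and 1017 in iPS-J. The latent ligand-binding proteins Ltbp1 and Ltbp2 were 5.97-fold and 5.99-fold higher, and the target Ccn2 (connective tissue growth factor) 3.75-fold. In the Nodal branch, which pluripotent cells use, 0 of 16 were higher and 4 were lower, among them Tdgf1, Lefty2 (2.5-fold), a Nodal inhibitor, and Gdf1 (2.04-fold on its brightest probe, with 0.08 log2 on the other). Nodal itself was 11118 in iPS-OSH and 9146 in iPS-J.

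Of 24 BMP pathway genes compared, 9 (37.5%) were higher and 3 (12.5%) were lower. The higher ones included the secreted antagonists Fst and Grem1. Grem1 had 23311 in iPS-OSH and 3681 in iPS-J, against 1329 in ESC and 10331 in MEF. The target Id3 was 4.22-fold higher, and the receptor Bmpr1b at least 6.39-fold. The 3 lower ones were the ligands Bmp6 (3.84-fold), Bmp7 (2.45-fold) and Bmp8b (2.34-fold). Of 26 FGF genes, 2 (7.69%) were higher and 4 (15.4%) were lower, against 8.91% and 7.36% of all genes. The higher ones were the ligands Fgf7 (8.33-fold), which stromal cells make, and Fgf2 (4.44-fold). The lower ones were the ligands Fgf21 (at least 8.95-fold) and Fgf10 (2.82-fold) and the receptors Fgfr4 and Fgfr3. Fgfr4 had 246 in iPS-OSH and 2146 in iPS-J, against 753 in ESC and 48.9 in MEF, with -0.83 log2 on its other probe. Fgf4, the ligand of pluripotent cells, was 23110 in iPS-OSH and 45950 in iPS-J, a difference of -0.99, just inside 2-fold. The FGF targets Dusp6, Etv4, Etv5 and Spry4 were within 2-fold.

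In the Wnt pathway 11 of 40 genes (27.5%) were higher and 5 (12.5%) lower, against 8.91% and 7.36% of all genes. The ligand Wnt5a had 3509 in iPS-OSH and 452 in iPS-J, against 827 in ESC and 6635 in MEF. The Wnt receptor Fzd1 was 5.68-fold higher, the agonist Rspo3 3.79-fold, and the antagonists Dkk2 and Dkk3 9.66-fold and 2.87-fold, in contrast to Dkk1. The target Axin2 was within 2-fold. Of 13 IGF genes, 5 (38.5%) were higher and 0 lower. These were the binding proteins Igfbp7 (7.49-fold), Igfbp5 (7.09-fold), Igfbp4 (3.27-fold) and Igfbp6 (2.79-fold) and the receptor substrate Irs1 (4.17-fold). In LIF and STAT3 signalling, which maintains mouse ESC, 3 of 16 (18.75%) were higher and 1 (6.25%) was lower. The higher ones were the receptors Osmr (5.97-fold) and Il6ra (2.78-fold) and Lif itself (3.51-fold). The feedback inhibitor Socs3 was lower, at 11958 in iPS-OSH and 31457 in iPS-J, against 32237 in ESC and 8746 in MEF.

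The Hedgehog pathway had 6 of 15 genes (40.0%) higher and 1 (6.67%) lower, against 8.91% and 7.36% of all genes. The ligand Shh was not detected on any of the 4 arrays, and Ihh, which visceral endoderm makes, was 4.98-fold lower, at 114 in iPS-OSH and 567 in iPS-J. The transcription factors Gli1, Gli2 and Gli3 were 2.11-fold, 2.44-fold and 2.44-fold higher. Gli1, the usual readout of the pathway, had 2959 in iPS-OSH and 1404 in iPS-J, against 1997 in ESC and 100.0 in MEF, so ESC lay between the lines. Ptch1, the receptor and also a target, was 401 in iPS-OSH and 407 in iPS-J, a difference of -0.02. The co-receptor Gas1 was 4.13-fold higher, with 0.04 and -0.40 log2 on its other probes, the ligand exporter Disp1 3.02-fold and the decoy receptor Hhip at least 2.27-fold. Bmi1, a Polycomb protein that represses Cdkn2a, was within 2-fold, at 1084 in iPS-OSH and 676 in iPS-J, against 519 in ESC and 3508 in MEF.

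Hox genes, which fix position along the body axis, were higher in iPS-OSH. Of 38 on the arrays, 37 were detected in iPS-OSH and 26 in iPS-J, against 29 in ESC and 36 in MEF. Over all genes the detected share was 82.1% in iPS-OSH and 72.5% in iPS-J, against 82.8% in ESC and 85.1% in MEF. The part of this wider gap in the Hox counts was not tested. Of 37 compared, 21 were higher and 2 (Hoxb13 and Hoxd13) were lower, with a median of 1.27, and 11 of the values were bounds. Hoxc6 had 6039 in iPS-OSH and 1016 in iPS-J, against 749 in ESC and 15370 in MEF. Hoxc9 had 1748 in iPS-OSH and 254 in iPS-J, against 160.2 in ESC and 4390.4 in MEF. In iPS-J both were within 2-fold of ESC, and iPS-OSH lay between ESC and MEF. Hoxc10 was 7.4-fold higher, Hoxb3 6.14-fold, Hoxa5 5.72-fold and Hoxb8 at least 5.2-fold. The median Hox gene reached 39.8% of MEF in iPS-OSH and 13.0% in iPS-J.

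Of 25 Polycomb genes, 1 was higher (Pcgf3, 2.09-fold) and 2 were lower. These shares, 4.0% and 8.0%, were below or near those of all genes, 8.91% and 7.36%. Pcgf5, a subunit of the first Polycomb complex, had 1618 in iPS-OSH and 7442 in iPS-J, against 3958 in ESC and 3264 in MEF, and its other probe differed by -2.23 log2. Ezh1, a histone methyltransferase, was 2.27-fold lower, with -0.89 and -0.37 log2 on 2 of its 3 other detected probes. Among 11 DNA methylation enzymes, 0 were higher and 2 (18.2%) were lower, the methyltransferase Dnmt3a (2.27-fold) and the demethylase Tet1 (2.14-fold). Dnmt3l and Mbd3 were within 2-fold. The other probes of Tet1 differed by -0.34 and -0.74 log2. Of 31 imprinted genes compared, 5 (16.1%) were higher and 6 (19.4%) were lower, against 8.91% and 7.36% of all genes. Meg3 and Mirg, noncoding RNAs of the Dlk1-Dio3 cluster whose loss has been linked to poor developmental potential of mouse iPS cells, were higher in iPS-OSH. Meg3 had 18306 in iPS-OSH and 5164 in iPS-J, against 12208 in ESC and 20299 in MEF, and Mirg had 3628 in iPS-OSH and 905 in iPS-J, against 2536 in ESC and 4463 in MEF. The other probes of Meg3 differed by 2.21 and 2.01 log2, and that of Mirg by 1.98. Both RNAs were detected in both lines, and for both the lowest array was iPS-J. Ndn was 4.83-fold and Plagl1 2.65-fold higher, with 0.62 and 0.83 log2 on 2 of the 3 other detected probes of Plagl1. The remaining probe of Plagl1 was also more than 2-fold higher. Cdkn1c, a growth-restraining inhibitor of cyclin-dependent kinases, was lower, at 1533 in iPS-OSH and 11478 in iPS-J, against 3574 in ESC and 4489 in MEF. Phlda2, its imprinted neighbour, was 3.42-fold lower.

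Xist, the RNA that coats the inactive X chromosome, was 228 in iPS-OSH and 39.4 in iPS-J, against 270.0 in MEF, and was not detected in ESC. Its antisense partner Tsix was 2.1-fold lower in iPS-OSH. The Y-linked genes Ddx3y, Eif2s3y and Uty were well above background and within 2-fold in both lines, with Eif2s3y at 3606 in iPS-OSH and 3454 in iPS-J.

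Of 27 replication and mitosis genes, 0 were higher and 3 were lower, 11.1% against 7.36% of all genes, and the median was -0.46. The 3 were the mitotic kinases Aurkb (6.03-fold) and Bub1 (2.29-fold) and the cyclin Ccnb2 (2.27-fold). Aurkb was dim, at 28.2 in iPS-OSH and 169.9 in iPS-J. Among 18 cell cycle inhibitors, p53 targets and D cyclins, 8 were higher and 3 were lower. Cdkn1a (p21), the main p53 target among the inhibitors, had 13517 in iPS-OSH and 3104 in iPS-J, against 3649.5 in ESC and 23096 in MEF. Cdkn2b (p15) was 3.8-fold higher, and cyclins Ccnd2 and Ccnd1 5.72-fold and 3.67-fold. Trp53 itself was 2.41-fold higher, with 4644 in iPS-OSH and 1927 in iPS-J. Cdkn1b (p27) was 3.8-fold lower, and Cdkn1c and Cdkn2d were the other lower members. Myc had 7024 in iPS-OSH and 3142 in iPS-J, against 1048 in ESC and 4136 in MEF, 2.23-fold higher in iPS-OSH, while its relative Mycn differed by -0.74. Of 15 immediate early genes, 6 were higher, led by the AP-1 members Fosl1 (7.24-fold) and Jun (3.59-fold) with Ccn1 (3.06-fold), and 1 (Atf3, 2.38-fold) was lower, whereas Fos differed by -0.05.

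Lists of other lineages went in mixed directions, against a background of 8.91% higher and 7.36% lower. Of 18 mesoderm genes, 7 (38.9%) were higher and 2 lower, with 8 of the values bounds at low signals. Among the 10 measured on both arrays, only 2 were higher and 1 was lower, with a median of -0.04. Tbx5 had 243 in iPS-OSH and was not detected in iPS-J, and T (brachyury) was detected in iPS-OSH alone of the 4 arrays. Of 16 trophoblast genes, 1 was higher and 6 (37.5%) were lower, among them Plac1 (4.34-fold) and Krt7 (2.99-fold), and Elf5 and Tpbpa were not detected on either iPS array. Of 10 endothelial markers, 2 were higher, led by Tek (5.02-fold), and 3 were lower, led by Cdh5, at 26.9 in iPS-OSH and 236 in iPS-J. Neural ectoderm genes had 2 of 11 higher and 0 lower, and erythroid genes 0 of 7 higher and 2 lower. Of 21 germline genes, 1 was higher (Nanos2, at least 4.43-fold) and 3 were lower, namely Dmc1, Piwil2 and Sycp3 (-0.92 log2 on its other probe). The 2-cell stage list had 4 of 14 genes lower, Tcstv3, Tcstv1, Zfp352 and Tmem92, and Zscan4c was 2391 in iPS-OSH and 1863 in iPS-J, both far below 28487 in ESC. Of 14 housekeeping genes, 0 were 2-fold different, and their median was -0.21. Among 637 olfactory and vomeronasal receptor genes compared, 47 were higher and 49 were lower (7.38% and 7.69%).

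The differences between the lines were set beside those between MEF and ESC, a pair that shares no array with them. In that pair, of 31396 genes, 16.7% exceeded 2-fold in favour of MEF and 22.6% in favour of ESC. Across 24309 genes well above background on all 4 arrays the correlation was r = 0.432 (Spearman's rho = 0.319), as a description, since genes share arrays and are not independent. Among the genes comparable in both pairs, 649 were 4-fold or more higher in iPS-OSH, and 557 of them (85.8%) were also 2-fold or more higher in MEF than in ESC, where 17.5% of all 28777 genes were. A further 400 were 4-fold or more lower in iPS-OSH, and 239 of them (59.8%) were lower in MEF than in ESC, where 22.5% of all genes were. The gene groups did not follow 1 line. Pluripotency factors had a median difference of -7.06 log2 in MEF against ESC and -0.12 in iPS-OSH against iPS-J. Fibroblast matrix genes were higher in both pairs, with a median of 4.29 in MEF against ESC and 2.34 in iPS-OSH against iPS-J. Acute phase genes had medians of 0.01 and 1.13 in the same order, and amino acid stress genes 0.90 and -1.02.

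**Figure D5:**
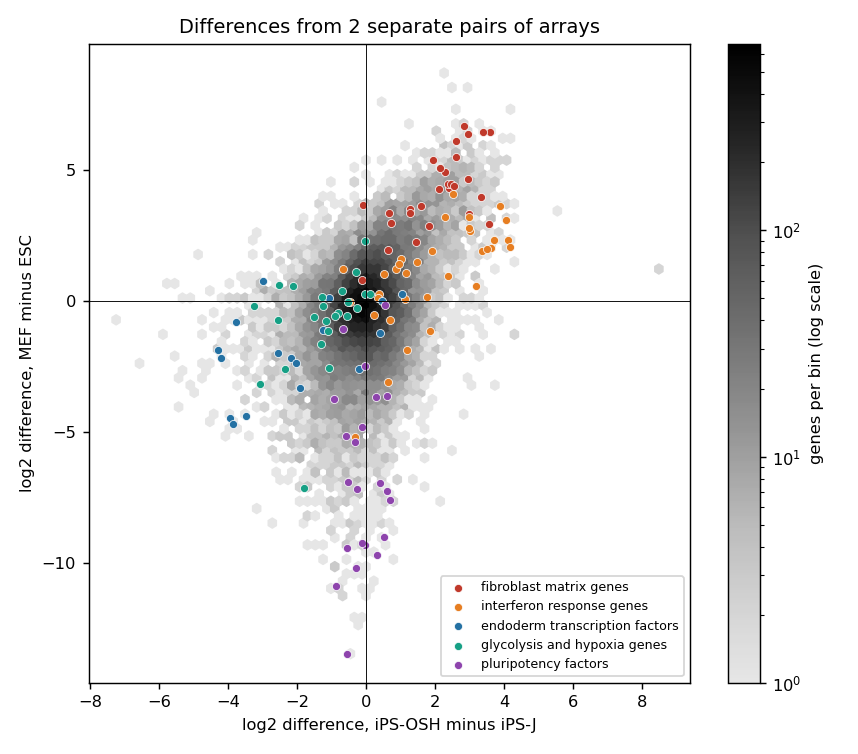
The log2 difference between MEF and ESC (y) is plotted against that between iPS-OSH and iPS-J (x) for genes compared in both pairs, bounds at their value, with grey showing genes per bin on a log scale and coloured points the members of 5 lists. Fibroblast matrix genes lie at the upper right, pluripotency factors lie near x = 0 at low y, and endoderm transcription factors lie to the left.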

How the data were processed

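Total RNA was labelled with Cy3 and hybridized to 1-colour Agilent arrays, 1 array per group, per the labels. The deposited scanner files give spot intensity, background-subtracted and detrended within the array by Agilent Feature Extraction 10.5.1.1, per the file headers, with no normalization between arrays. The authors' deposited value table holds the same processed intensity, rounded (deviations of at most 0.497%). It was used as an alternative.

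Control spots and spots called uneven or outlying (203 in iPS-OSH and 531 in iPS-J, against 390 in ESC and 302 in MEF) were dropped. The log2 processed signal minus the array's 75th percentile was averaged per probe, and a scaled signal is 1000 times 2 to that power. Genes were named by accession, symbol or synonym through RefSeq, otherwise by the file, and each was represented by its probe of highest mean over 4 arrays. For the 35157 genes with a value, a bound was set against the higher of the probe's own dim signal and that array's lowest detected signal (14.1 in iPS-OSH and 22.9 in iPS-J). Probe positions refer to mm9 as in the files, with no exon or UTR, as no mm9 annotation was used here. Where a named gene's other detected probe fell on the other side of 2-fold, its value is given. Arrays have no read depth, and the number of arrays limits the precision.

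The members and lists were chosen with earlier results of these data known. Named genes followed a rule, giving 251 genes: the 10 largest measured differences and 5 largest bounds each way, up to 6 members of each of 44 lists with at least a 2-fold difference, the 3 brightest of lists with fewer than 3 such, and 17 standing genes. A few of these genes are not reported here. Other named genes (list members within 2-fold or less different, and those beyond the 6) were chosen after their values were seen. Promoters were searched on both strands. Alternatives were normexp background correction (limma 3.58.1, offset 50), quantile normalization, scaling on probes detected in both iPS lines or on spike-ins, other filters and probe rules, the value table and a 4-fold threshold. Gene names as in the file and detection above the 95th percentile of ERCC probes were added after seeing the data. The procedure was tested on simulated data in which every gene was set as detected on both arrays, with spot noise only. That test therefore did not cover bounds or variation between cultures. The comparison of signals used Python 3.11.15 with pandas 2.3.3 and R 4.3.3.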

Additional observations from a re-analysis of the deposited data

How the results depend on the processing

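With 1 choice changed at a time, the number of genes at least 2-fold higher in iPS-OSH (2605) became 1411 with normexp background correction, 4250 with no filter on dim probes, 4654 with the deposited value table, which is not scaled between arrays, 670 at the 4-fold threshold and 1579 with ERCC-based detection. The number lower (2151) became 1570 with normexp, 1254 with the value table and 467 at 4-fold. The share of calls that were higher, 54.8%, became 47.3% with normexp, so that lower calls outnumbered higher ones, 50.1% with quantile normalization, 69.6% with spike-in scaling and 78.8% with the value table, which moved the median over all genes to 0.18 and 0.33. Of the 15 list medians past 2-fold, 0 reversed under 11 alternatives and 12 to 15 stayed past 2-fold, with the Hox list at 0.49 to 1.64 and the fibroblast matrix list at 2.17 to 2.67. Of the named genes, 1 reversed, C1ra, at -1.15 with uneven spots kept. The correlation with the MEF against ESC difference lay between 0.394 and 0.475. No paired analysis was possible because each group had 1 array and the labels carry no replicate numbers. Signals near background limit the bounds, which depend on the array's lowest detected signal.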

Other observations

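A few probes without a common gene symbol, chosen after their values were seen, had larger differences than any gene named in the comparison. The RIKEN transcript 4933427J07Rik (probe at chr2:128781406-128781465, mm9) had a scaled signal of 11272 in iPS-OSH and was not detected in iPS-J, against 72.7 in ESC and 158 in MEF, so that it was at least 377-fold higher in iPS-OSH. Gm7273 went the other way, with 64.1 in iPS-OSH and 9705 in iPS-J, against 174 in ESC and 99.4 in MEF. Each was high on 1 array of the 4. Neither gene had another detected probe on the array.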
